A study of Mus musculus with 10 samples.

Results

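The genes described are 45 mouse genes of the cell cycle and of DNA replication, taken from a list of symbols by function, of 46517 gene identifiers in the count tables. The list was chosen with earlier results of these data known. They fall into 19 genes of the passage from G1 into S phase and of DNA replication (G1/S genes) and 26 genes of the G2 phase and mitosis (G2/M genes). There were 10 RNA-seq libraries of mouse kidney under 4 genotype labels. The G1-APOL1 (n = 2) and G2-APOL1 (n = 2) groups carried the G1 or the G2 risk allele of human APOL1, a gene of the apolipoprotein L family, and the series title places the expressed variants in podocytes. Control (n = 3) and wild type (single mutant) (n = 3) were the reference groups, and what single mutant means is not explained. The labels give no promoter or inducer of the transgene and no strain, age or treatment. Genotypes were not checked against the human APOL1 transcript, which was not analysed here. The labels leave unsaid whether any 2 libraries share a mouse, and p-values therefore reflect only how far libraries of a group lie apart, which may be technical. G1-APOL1 names an allele here and G1/S a cell cycle phase.

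In the adult kidney most tubule cells are quiescent, and tubule cells are known to re-enter the cycle after injury. Mitogens raise cyclin D (Ccnd1), which with its kinases releases E2F transcription factors (E2f1) from the retinoblastoma protein, and E2F then drives cyclin E and the genes that license and copy DNA. Cdc6 and Cdt1 load the Mcm2 to Mcm7 helicase on DNA, Cdc45 and the GINS complex (Gins1, Gins2) activate it, Pcna clamps the polymerases, and Rrm1, Rrm2 and Tyms supply nucleotides. Later Foxm1 drives genes of G2 and mitosis, among them cyclins B (Ccnb1, Ccnb2), their kinase Cdk1, the kinases Plk1, Aurka and Aurkb, the spindle checkpoint kinases Bub1 and Bub1b, and the motors and regulators of the spindle and of cytokinesis.

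Promoters are shown first because the genes of both phases are known to be read by different factors: E2F acts on replication genes, and the cell cycle genes homology region (CHR element, TTTGAA), often beside CCAAT boxes, marks many mitotic genes. RefSeq promoters of GRCm38.p6, each from 250 bases before to 50 bases after a start, matched 34 of the 45 genes (14 G1/S, 20 G2/M). An E2F word was any of TTTGGCGC, TTTCCCGC, TTTCGCGC, TTTGCCGC or TTTGGCGG on either strand. The CHR element was TTTGAA and the CCAAT box CCAAT, both on either strand. The 160 bases before the start are printed for 2 helicase genes (Mcm5, Mcm6), for Cdk1, which alone among the G2/M genes held an E2F word, and for 2 mitotic genes (Cdc20, Top2a). Capitals mark the words found, and E2F words can overlap each other, as in Mcm5 and Mcm6.
Mcm5, chr8:75109349-75109508, plus strand: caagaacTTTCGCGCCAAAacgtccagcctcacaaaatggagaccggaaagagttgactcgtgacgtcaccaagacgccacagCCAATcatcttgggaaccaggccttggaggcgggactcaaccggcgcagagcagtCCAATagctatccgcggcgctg
Mcm6, chr1:128359706-128359865, minus strand: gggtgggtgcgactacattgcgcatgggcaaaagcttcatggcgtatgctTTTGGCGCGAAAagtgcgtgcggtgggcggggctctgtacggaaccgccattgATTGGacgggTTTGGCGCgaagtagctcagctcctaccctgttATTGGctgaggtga
Cdk1, chr10:69352913-69353072, minus strand: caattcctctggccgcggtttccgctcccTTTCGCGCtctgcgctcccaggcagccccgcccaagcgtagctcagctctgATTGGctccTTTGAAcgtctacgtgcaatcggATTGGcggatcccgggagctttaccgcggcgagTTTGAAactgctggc
Cdc20, chr4:118437344-118437503, minus strand: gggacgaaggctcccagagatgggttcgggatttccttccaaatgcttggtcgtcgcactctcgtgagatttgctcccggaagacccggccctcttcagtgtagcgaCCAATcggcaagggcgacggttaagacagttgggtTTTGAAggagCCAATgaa
Top2a, chr11:99024190-99024349, minus strand: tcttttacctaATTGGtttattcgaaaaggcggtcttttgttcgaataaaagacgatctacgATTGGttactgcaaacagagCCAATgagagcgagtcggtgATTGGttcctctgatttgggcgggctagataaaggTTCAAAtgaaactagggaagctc

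Matches to the words fell differently over both gene groups. An E2F word was found in 6 of 14 G1/S promoters, those of Cdc6, Cdt1, Mcm3, Mcm5, Mcm6 and Mcm7, and in 1 of 20 G2/M promoters, against 3.18% of the 27025 genes in the promoter table and 5.01% of the 12541 of these that were tested for expression. The 6 genes all belong to the loading or the body of the helicase. The contrast in E2F words depended on the words chosen. GGCGGG in their place was in 12 of 14 G1/S and 17 of 20 G2/M promoters, and GGCGCC in 3 of 14 and 5 of 20. TTTGGCGC alone was in 4 of 14 and 0 of 20. Shares of all genes are not given for these alternative words. The CHR element was found in 2 of 14 G1/S promoters (Cdc45, Mcm2) and in 15 of 20 G2/M promoters, against 20.2% of all genes and 14.9% of tested genes. Without the 50 bases after the start, the G2/M count was 9, and the E2F word count was 4 of 14 for G1/S. Shares of all genes are not given for that shorter window. CCAAT boxes were in 9 of 14 and 17 of 20, against 41.1% of all genes. The same words were searched in genes outside the 45: E2F words were in 15 of 31 other replication genes and 6 of 35 other mitosis genes, and the CHR element in 3 of 31 and 23 of 35. Among the G2/M genes, the median log2 fold change with the risk alleles, described next, was 3.30 for the 15 with a CHR element and 3.13 for the 5 without. A match is a stretch of letters, and binding was not measured.

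Library totals ran from 27596391 to 34815153 counts, and all 45 genes passed the filter on low counts that left 17823 genes tested. Levels are CPM, the usual depth-scaled counts, on TMM-scaled library sizes, and changes are log2 fold changes from 1 edgeR quasi-likelihood fit over the 10 libraries, called at a Benjamini-Hochberg adjusted p under 0.05 over all tested genes. Kidney markers were present in each library: summed proximal tubule markers stood at 3890 to 4698 CPM in G1-APOL1, 6400 to 6944 in G2-APOL1, 15077 to 16880 in wild type (single mutant) and 15095 to 16259 in Control. Scaling on library totals alone would raise the median of all tested genes by 0.28 in the mean of both risk allele groups against Control. It would also turn 3441 genes called higher and 3212 called lower into 6037 and 1600. The values given are relative to the TMM scaling, under which that median is 0.00, and none of the 45 genes changed direction in this comparison under another scaling. In bulk kidney RNA, more cells in cycle and more RNA of these genes per cell cannot be told apart.

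With the risk alleles, nearly the whole set rose, and the mitotic genes had the larger fold changes. Against Control, the mean of G1-APOL1 and G2-APOL1 was called higher for 42 of the 45 genes and lower for 1, while 19.3% of all tested genes were called higher and 18% lower. All 26 G2/M genes were called higher, with a median log2 fold change of 3.26 and a range from 1.30 to 3.79. Of the 19 G1/S genes, 16 were called higher and 1 lower (Ccnd1), and 2 were not called (Mcm6, Tyms), with a median of 1.32. The median over all tested genes was 0.00. In 39 of the 45 genes, each of the 4 risk allele libraries lay above each of the other 6, an order held by 16.4% of all tested genes. The exceptions were Ccnd1, Cdc45, Cdt1, Mcm6 and Tyms of the G1/S genes and Ect2 of the G2/M genes. The lowest risk allele library was more than 2 times the highest other library for 19 of the 26 G2/M genes and 2 of the 19 G1/S genes, against 3.09% of all tested genes. Because the 45 genes were chosen with earlier results of these data known, these shares are descriptions and no independent check.

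**Figure D1:**
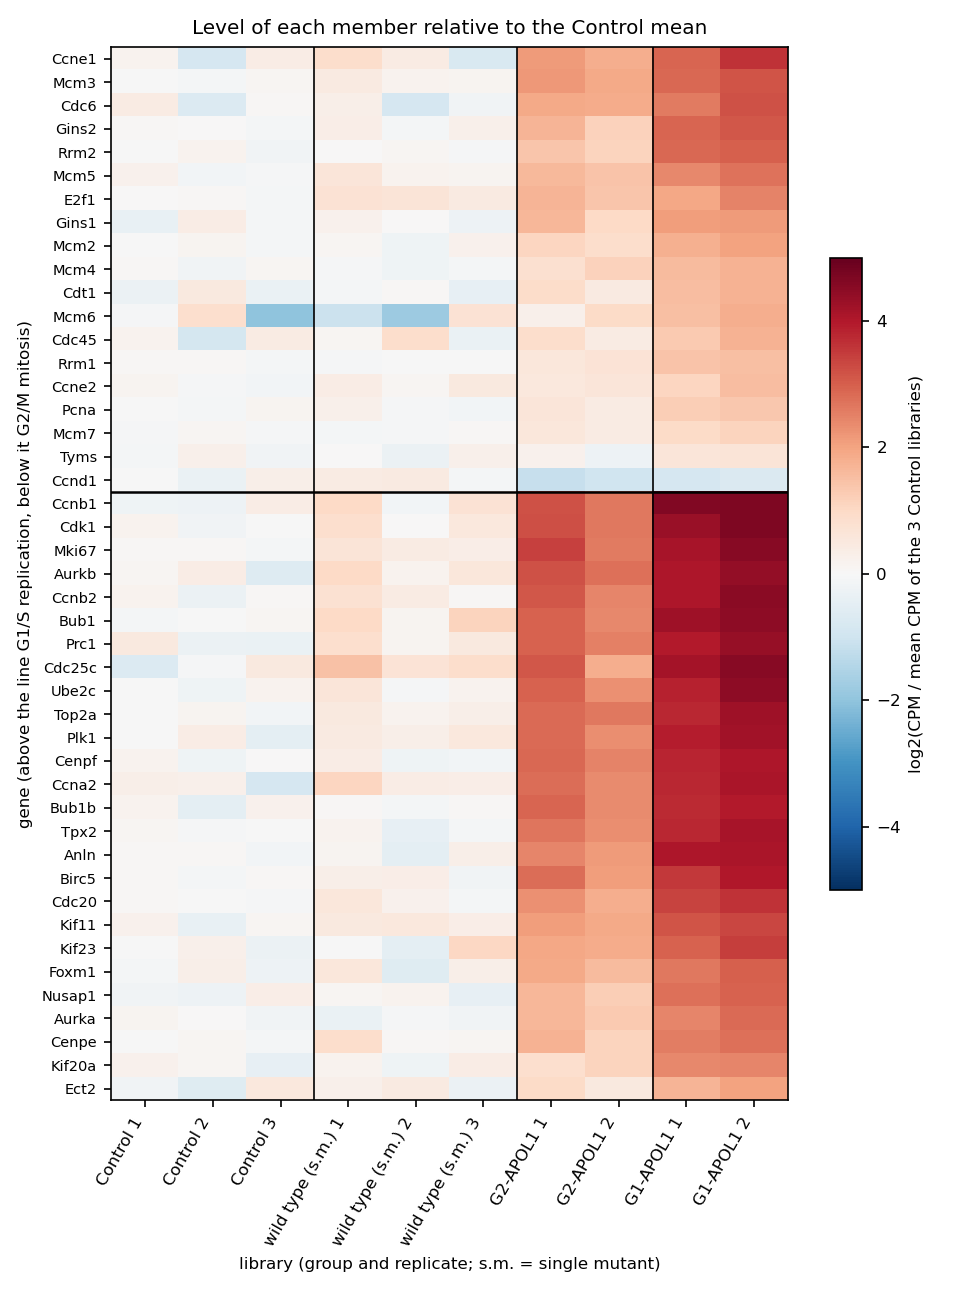
Each row is a gene and each column a library, and the colour is the log2 ratio of its CPM to the mean of the 3 Control libraries, with genes of each group sorted by their change against Control. The 4 risk allele columns are red for nearly every gene, deepest for G2/M genes in G1-APOL1, while Ccnd1 is blue and Mcm6 is uneven over the other 6 libraries.

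The best known proliferation markers showed the change in every risk allele library. Mki67, which encodes the Ki-67 antigen of cycling cells and lies at chr7:135689784-135716361 (GRCm38), stood at 58.8 and 77.3 CPM in G1-APOL1, 36.1 and 20.4 in G2-APOL1, 5.17, 4.42 and 4.16 in wild type (single mutant) and 3.47, 3.44 and 3.10 in Control. Its lowest risk allele library was several times the highest of the others, and the log2 fold change was 3.71 ± 0.22 (SE; adjusted p = 4.03e-05), a 13.1-fold rise. Top2a, the topoisomerase that untangles chromosomes, stood at 35.8 and 50.1 CPM in G1-APOL1, 19.2 and 16.3 in G2-APOL1, 3.70, 2.96 and 3.24 in wild type (single mutant) and 2.60, 2.93 and 2.43 in Control. The groups did not overlap, and the fold change of 3.38 ± 0.17 (SE; adjusted p = 2.88e-05) had the smallest adjusted p of the 45. Cdk1, the kinase that drives entry into mitosis, stood at 28.8 and 36.2 CPM in G1-APOL1, 13.3 and 9.02 in G2-APOL1, 2.60, 1.46 and 2.08 in wild type (single mutant) and 1.63, 1.27 and 1.43 in Control. Its promoter, printed above, held an E2F word and 2 CHR elements, and the gene rose by 3.72 ± 0.26 (SE; adjusted p = 5.61e-05).

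Ccnb1, the cyclin that activates Cdk1, had the highest fold change of the set. It stood at 12.9 and 13.3 CPM in G1-APOL1, 4.77 and 3.21 in G2-APOL1, 1.03, 0.475 and 0.852 in wild type (single mutant) and 0.451, 0.435 and 0.676 in Control, a rise of 3.79 ± 0.32 (SE; adjusted p = 9.60e-05) from a Control level of about 0.521 CPM on average. Foxm1, the transcription factor of G2 and mitosis, stood at 13.4 and 17.1 CPM in G1-APOL1, 8.02 and 6.43 in G2-APOL1, 3.25, 1.42 and 2.69 in wild type (single mutant) and 2.01, 2.68 and 1.83 in Control. It rose by 2.27 ± 0.29 (SE; adjusted p = 0.000583), below the G2/M median.

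The kinases, checkpoint and degradation genes of mitosis were higher in G1-APOL1 than in G2-APOL1, and in both than in the other groups. Plk1, a kinase of mitotic entry, stood at 13.4 and 16.4 CPM in G1-APOL1, 6.27 and 4.41 in G2-APOL1, 1.198, 1.10 and 1.29 in wild type (single mutant) and 0.868, 1.16 and 0.637 in Control. Aurka, which acts at the spindle poles, stood at 9.28 and 12.2 CPM in G1-APOL1, 5.36 and 4.16 in G2-APOL1, 1.33, 1.61 and 1.499 in wild type (single mutant) and 1.87, 1.70 and 1.51 in Control. Neither gene overlapped between the 4 risk allele libraries and the other 6, and they rose by 3.32 ± 0.25 and 2.07 ± 0.19. Aurkb, the kinase of the chromosomal passenger complex, rose by 3.60 ± 0.31, from 4.16 to 13.1 CPM in the 4 risk allele libraries and 0.398 to 1.23 in the other 6. Bub1 stood at 5.59 and 6.60 CPM in G1-APOL1, 2.31 and 1.57 in G2-APOL1, 0.582, 0.329 and 0.647 in wild type (single mutant) and 0.278, 0.290 and 0.318 in Control. Bub1b stood at 10.9 and 13.0 CPM in G1-APOL1, 6.14 and 4.24 in G2-APOL1, 0.856, 0.767 and 0.852 in wild type (single mutant) and 0.937, 0.579 and 0.955 in Control. Both checkpoint kinases were high in all 4 risk allele libraries and rose by 3.52 ± 0.31 and 3.25 ± 0.25. Birc5, the survivin subunit of the passenger complex, stood at 15.7 and 21.5 CPM in G1-APOL1, 9.32 and 5.73 in G2-APOL1, 1.64, 1.68 and 1.19 in wild type (single mutant) and 1.39, 1.27 and 1.39 in Control. It rose by 3.13 ± 0.24, with no overlap. Cdc20, which activates the anaphase-promoting complex, stood at 21.1 and 24.6 CPM in G1-APOL1, 9.74 and 7.08 in G2-APOL1, 2.98, 2.37 and 1.87 in wild type (single mutant) and 2.12, 1.99 and 1.95 in Control. Ube2c, the ubiquitin carrier of that complex, stood at 16.8 and 26.1 CPM in G1-APOL1, 9.06 and 5.76 in G2-APOL1, 1.81, 1.13 and 1.33 in wild type (single mutant) and 1.18, 1.01 and 1.35 in Control. They rose by 2.78 ± 0.21 and 3.41 ± 0.28, and in both the G1-APOL1 libraries were the highest.

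Cyclins, chromosome genes and the phosphatase of Cdk1 rose as well. Ccnb2 stood at 19.04 and 26.03 CPM in G1-APOL1, 9.71 and 6.15 in G2-APOL1, 1.92, 1.53 and 1.19 in wild type (single mutant) and 1.28, 0.942 and 1.19 in Control. Cenpf, a centromere protein of G2 and mitosis, stood at 13.0 and 15.4 CPM in G1-APOL1, 6.75 and 5.23 in G2-APOL1, 1.198, 0.804 and 0.852 in wild type (single mutant) and 1.04, 0.797 and 0.955 in Control. Their changes were 3.55 ± 0.27 and 3.3 ± 0.22, with all 4 risk allele libraries above the rest. Ccna2, the cyclin of S phase and G2, rose by 3.26 ± 0.33, and the centromere motor Cenpe by 2.06 ± 0.26. Cdc25c, the phosphatase that activates Cdk1, stood at 1.99 and 2.62 CPM in G1-APOL1, 0.974 and 0.399 in G2-APOL1, 0.308, 0.183 and 0.204 in wild type (single mutant) and 0.0694, 0.109 and 0.159 in Control. It had as few as 2 counts in a Control library, did not overlap between the groups and rose by 3.45 ± 0.46 (SE; adjusted p = 0.000686).

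Genes of the spindle and of cytokinesis completed the mitotic group. Tpx2, a spindle assembly factor, stood at 19.4 and 24.7 CPM in G1-APOL1, 8.90 and 7.05 in G2-APOL1, 1.57, 1.06 and 1.33 in wild type (single mutant) and 1.49, 1.34 and 1.39 in Control. Kif11, the motor that separates spindle poles, stood at 9.44 and 10.96 CPM in G1-APOL1, 4.55 and 4.01 in G2-APOL1, 1.51, 1.53 and 1.36 in wild type (single mutant) and 1.25, 0.833 and 1.15 in Control. Tpx2 had the widest gap of the 45 genes, with its lowest risk allele library at 4.48 times its highest other library. Tpx2 rose by 3.23 ± 0.20 and Kif11 by 2.61 ± 0.20. Nusap1, which bundles spindle microtubules, stood at 17.4 and 20.03 CPM in G1-APOL1, 8.15 and 6.15 in G2-APOL1, 2.77, 2.96 and 1.94 in wild type (single mutant) and 2.29, 2.17 and 3.302 in Control. Prc1, which builds the central spindle, stood at 21.2 and 27.6 CPM in G1-APOL1, 10.5 and 7.80 in G2-APOL1, 2.43, 1.498 and 1.91 in wild type (single mutant) and 1.87, 1.09 and 1.07 in Control. Both were free of overlap and rose by 2.16 ± 0.23 and 3.47 ± 0.28. Anln, a cytokinesis scaffold, stood at 21.1 and 21.4 CPM in G1-APOL1, 6.88 and 5.53 in G2-APOL1, 1.40, 0.913 and 1.57 in wild type (single mutant) and 1.32, 1.34 and 1.15 in Control. Kif20a, a motor of the central spindle, stood at 9.57 and 9.73 CPM in G1-APOL1, 3.28 and 3.96 in G2-APOL1, 2.05, 1.57 and 2.35 in wild type (single mutant) and 2.12, 1.96 and 1.35 in Control. Anln rose by 3.17 ± 0.21 and Kif20a by 1.70 ± 0.22, and in both the G1-APOL1 libraries exceeded the G2-APOL1 libraries. Kif23, another cytokinesis motor, rose by 2.56 ± 0.36, from 8.42 to 25.7 CPM in the 4 risk allele libraries and 1.64 to 4.70 in the other 6.

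Ect2, the exchange factor that starts cytokinesis, was the G2/M gene with the smallest rise. It stood at 13.8 and 17.2 CPM in G1-APOL1, 8.31 and 6.03 in G2-APOL1, 5.06, 5.84 and 3.51 in wild type (single mutant) and 3.85, 2.82 and 6.21 in Control, so that 1 G2-APOL1 library lay below 1 Control library. The change against Control was 1.30 ± 0.30 (SE; adjusted p = 0.00886). It was 0.76, and not called, without the 3 libraries whose titles begin with NA_ (wild type (single mutant) replicate 3 and Control replicates 1 and 2). This alternative was added after the data had been seen, and Control replicate 3 was its only Control library.

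Among the G1/S genes, those that license and unwind DNA rose by unequal amounts. Mcm2 stood at 33.2 and 39.2 CPM in G1-APOL1, 20.4 and 18.1 in G2-APOL1, 10.6, 8.44 and 11.3 in wild type (single mutant) and 9.54, 10.8 and 9.11 in Control. Mcm5 stood at 28.6 and 35.6 CPM in G1-APOL1, 16.8 and 14.5 in G2-APOL1, 8.21, 6.14 and 5.89 in wild type (single mutant) and 6.21, 4.85 and 5.13 in Control. All 4 risk allele libraries were above the other 6 for both, and the changes were 1.43 ± 0.14 (SE; adjusted p = 0.000147) for Mcm2 and 2.05 ± 0.17 (SE; adjusted p = 9.60e-05) for Mcm5. Mcm3 stood at 31.8 and 38.5 CPM in G1-APOL1, 19.4 and 15.9 in G2-APOL1, 5.89, 4.86 and 4.74 in wild type (single mutant) and 4.30, 4.02 and 4.62 in Control. Mcm7 stood at 45.7 and 49.99 CPM in G1-APOL1, 34.5 and 31.3 in G2-APOL1, 22.1, 22.6 and 24.1 in wild type (single mutant) and 22.5, 25.1 and 22.4 in Control. They marked the ends of the called helicase subunits, with rises of 2.53 ± 0.15 (SE; adjusted p = 4.03e-05) for Mcm3 and 0.77 ± 0.09 (SE; adjusted p = 0.000296) for Mcm7, and neither overlapped between the groups. Mcm4 lay between, at 1.32 ± 0.13. Control levels per kb of exon ran broadly in the reverse order, at 1.15 CPM per kb for Mcm3, 1.35 for Mcm5, 1.41 for Mcm2, 2.401 for Mcm4 and 5.27 for Mcm7. In G1-APOL1 they stood closer, at 9.36, 8.03, 5.21, 7.53 and 10.8 CPM per kb. The loaders Cdc6 and Cdt1 rose by 2.4 and 1.17, and the GINS subunit Gins1 by 1.74. Gins2 stood at 15 and 17.5 CPM in G1-APOL1, 6.53 and 4.48 in G2-APOL1, 2.53, 1.90 and 2.38 in wild type (single mutant) and 2.12, 2.03 and 1.91 in Control. Its G1-APOL1 libraries were far above its G2-APOL1 libraries, and it rose by 2.23 ± 0.19 on average. Cdc45, the partner of the active helicase, stood at 2.94 to 7.56 CPM in the 4 risk allele libraries and 1.23 to 4.13 in the other 6, and its groups overlapped. Its call was close to the threshold at 1.10 ± 0.38 (SE; adjusted p = 0.0467), and it was lost in 9 of the 16 alternatives run. These were relative log expression size factors, and leaving out any 1 of the 4 risk allele libraries or wild type (single mutant) replicate 1. The others left out Control replicate 1, Control replicate 2, or the 3 libraries titled NA_ together. In the last of these, with Control replicate 3 as the only Control library, the change was 0.68.

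Mcm6 was the helicase subunit that was not called, and its reference libraries were split. It lies at chr1:128331590-128359664 and stood at 33.3 and 41.2 CPM in G1-APOL1, 14.0 and 22.5 in G2-APOL1, 5.58, 3.36 and 19.3 in wild type (single mutant) and 11.3, 20.9 and 2.90 in Control. The 3 reference libraries at or above 11.3 CPM were those with titles beginning NA_, and the other 3 lay at 5.58 CPM or below. The change against Control was 1.15 ± 0.70 (SE; adjusted p = 0.224). Without the libraries titled NA_ it was 3.16, but Control replicate 3, at 2.90 CPM, was then the only Control library. Against Control, Mcm6 was called in none of the other alternatives. The pseudogene Pcna-ps2 was split in the same way, with 61, 96 and 71 counts in the libraries titled NA_ and 7, 9 and 8 in the other reference libraries. Of the other members, Kif23 was higher in all 3 libraries titled NA_ than in the other 3, and Ccnd1, Ccne1, Birc5, Ect2 and Nusap1 were lower. In the remaining members the libraries titled NA_ overlapped with the other 3. No share of all tested genes is given for such an order, so it is not read as particular to these members. The labels do not say what the title stands for, and its part in these values was not tested.

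Of the genes for nucleotide supply and the clamp, Rrm2 had the highest fold change. Rrm2, the regulated subunit of ribonucleotide reductase, stood at 50.3 and 54.8 CPM in G1-APOL1, 17.8 and 14.7 in G2-APOL1, 6.98, 7.31 and 6.64 in wild type (single mutant) and 6.84, 7.68 and 6.05 in Control. Pcna stood at 60.6 and 64.8 CPM in G1-APOL1, 38.8 and 34.0 in G2-APOL1, 30.9, 24.9 and 23.2 in wild type (single mutant) and 25.2, 24.1 and 27.9 in Control. Neither gene overlapped between the risk allele libraries and the others, and the rises were 2.09 ± 0.12 (SE; adjusted p = 4.03e-05) for Rrm2 and 0.89 ± 0.12 (SE; adjusted p = 0.000606) for Pcna. Pcna started from 10.7 CPM per kb in Control and Rrm2 from 2.47. Rrm1, the large reductase subunit, stood at 41.7 and 43.6 CPM in G1-APOL1, 23.0 and 24.7 in G2-APOL1, 14.6, 15.3 and 15 in wild type (single mutant) and 16.0, 15.9 and 14.2 in Control. It rose by 1.05 ± 0.09 (SE; adjusted p = 8.37e-05), with no overlap. Tyms, which makes thymidylate, stood at 28.2 and 29.0 CPM in G1-APOL1, 21.6 and 15.5 in G2-APOL1, 18.5, 15.2 and 21.7 in wild type (single mutant) and 17.1, 21.7 and 16.4 in Control. Its G1-APOL1 libraries were above all others, its G2-APOL1 libraries lay among the reference libraries, and the change of 0.32 ± 0.17 (SE; adjusted p = 0.161) was not called. With library totals alone it was 0.59 (adjusted p = 0.0242).

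The genes that act at the G1/S gate moved in opposite directions. Ccnd1, at chr7:144929931-144939925, stood at 128 and 137 CPM in G1-APOL1, 102 and 114 in G2-APOL1, 304, 312 and 215 in wild type (single mutant) and 225, 179.9 and 279 in Control. All 4 risk allele libraries were below all 6 others, and the gene fell by 0.93 on the log2 scale against Control (SE 0.17; adjusted p = 0.00315). Ccne1, the cyclin E that acts after cyclin D, stood at 3.85 and 6.37 CPM in G1-APOL1, 2.27 and 1.84 in G2-APOL1, 0.958, 0.694 and 0.307 in wild type (single mutant) and 0.590, 0.290 and 0.676 in Control. It rose by 2.64 ± 0.44 (SE; adjusted p = 0.00196), the highest fold change of the G1/S genes. Its paralog Ccne2 rose by 0.95 ± 0.21 (SE; adjusted p = 0.00699). That call was lost without the libraries titled NA_, where Control replicate 3 was the only Control library and the change was 1.08. E2f1 stood at 9.68 and 14.2 CPM in G1-APOL1, 8.15 and 6.58 in G2-APOL1, 4.17, 3.95 and 3.44 in wild type (single mutant) and 2.57, 2.61 and 2.39 in Control. It rose by 1.89 ± 0.19 (SE; adjusted p = 0.000164), and its 3 wild type (single mutant) libraries were also above the 3 Control libraries.

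**Figure D2:**
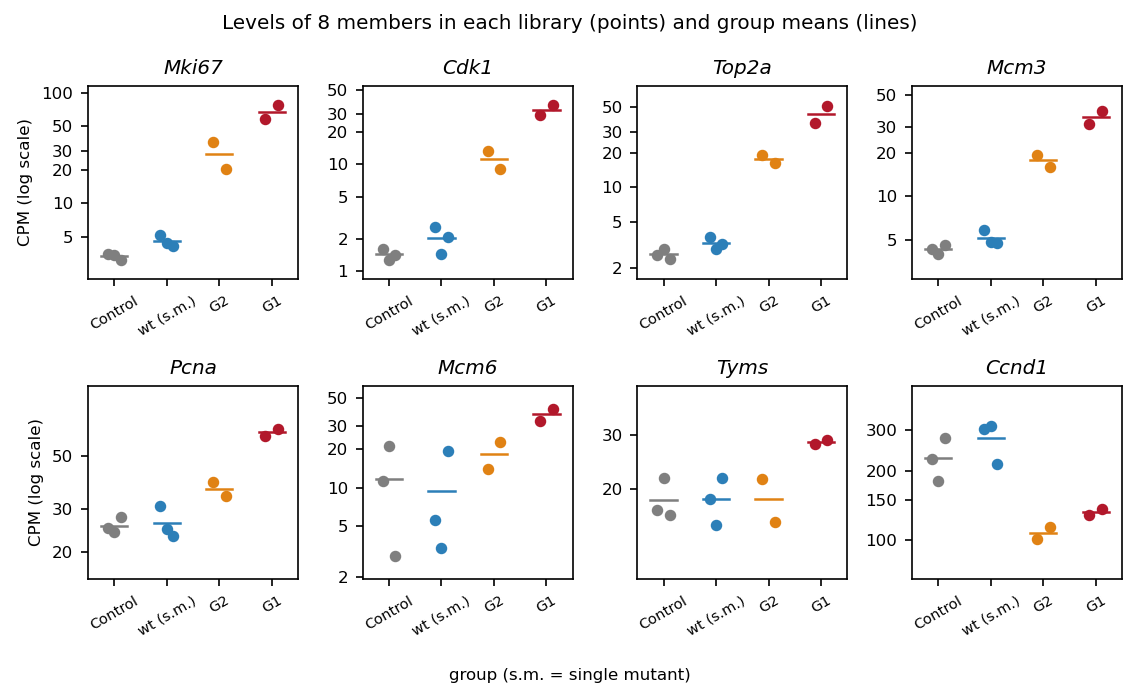
Each panel shows CPM on a log axis for 1 gene, with a point per library and a line at the group mean (s.m. is single mutant, G1 and G2 are the APOL1 groups). Mki67, Cdk1, Top2a and Mcm3 step up from the reference groups to G2-APOL1 and to G1-APOL1, Pcna rises less, Mcm6 is split within both reference groups, Tyms is high in G1-APOL1 alone, and Ccnd1 is low in both risk allele groups.

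The gap between both phases was seen in each risk allele library. For each library, the median over genes of the log2 ratio to the Control mean was 1.57 and 1.82 for G1/S genes in the G1-APOL1 libraries and 3.78 and 4.09 for G2/M genes. In the G2-APOL1 libraries it was 0.90 and 0.94 for G1/S genes and 2.81 and 2.30 for G2/M genes. The G2/M median was thus above the G1/S median by 1.36 to 2.27 in all 4, whereas in the 6 other libraries both medians lay between -0.08 and 0.52. The Control libraries lie near 0 by construction, since they form the Control mean. In the wild type (single mutant) libraries, the G1/S median minus the G2/M median ran from -0.34 to -0.12. From the fit, the G1/S median was below the G2/M median by 1.94 in the mean of both risk allele groups against Control. This difference describes the listed genes and carries no test.

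**Figure D3:**
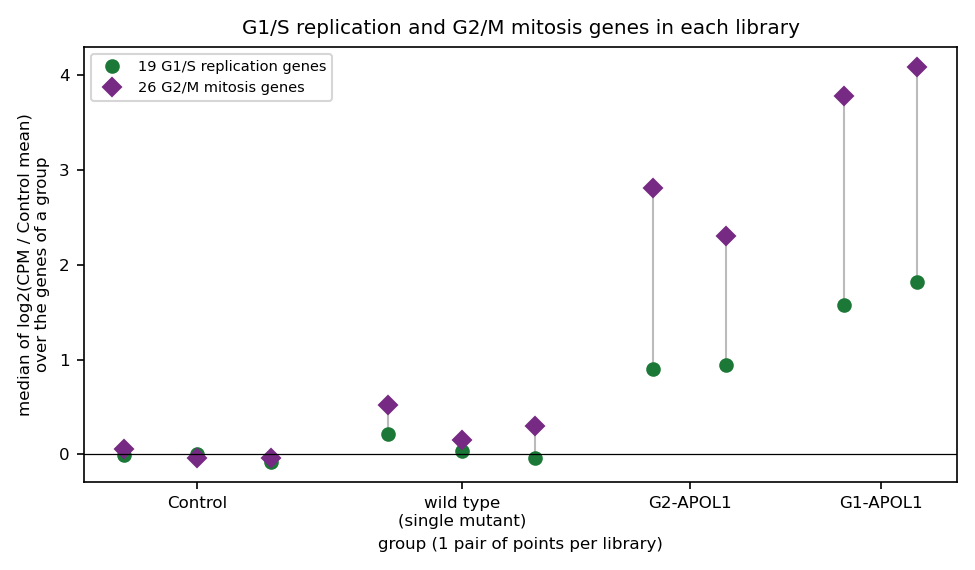
For each library, the circle is the median log2 ratio to the Control mean over the 19 G1/S genes and the diamond that over the 26 G2/M genes. The points lie near 0 in Control by construction, and the diamonds lie 1.36 to 2.27 above the circles in the 4 risk allele libraries.

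The phases differed in their starting level. In Control, the median level was 1.39 CPM per kb for G1/S genes and 0.298 for G2/M genes, with the lowest at 0.0229 (Cdc25c) and the highest at 48.4 (Ccnd1). Across the 45 genes, the Control level on a log scale and the log2 fold change against Control ran in opposite directions (Pearson's r -0.79, Spearman's rho -0.75). Within the G1/S genes these values were -0.77 and -0.66 (19 genes), and within the G2/M genes -0.42 and -0.40 (26 genes). The genes share the same libraries and the Control level enters both axes, so these are descriptions only. On a linear scale the medians lay close together, with the G1/S median slightly the higher, beside a wide spread over genes. The median gain in level over Control was 3.48 CPM per kb for G1/S genes and 3.28 for G2/M genes in G1-APOL1, and 1.25 and 1.07 in G2-APOL1. In G1-APOL1 the gains ran from -20.2 (Ccnd1) to 16.5 CPM per kb (Rrm2) for G1/S genes. For G2/M genes they ran from 0.446 (Cdc25c) to 14.0 (Ccnb2).

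**Figure D4:**
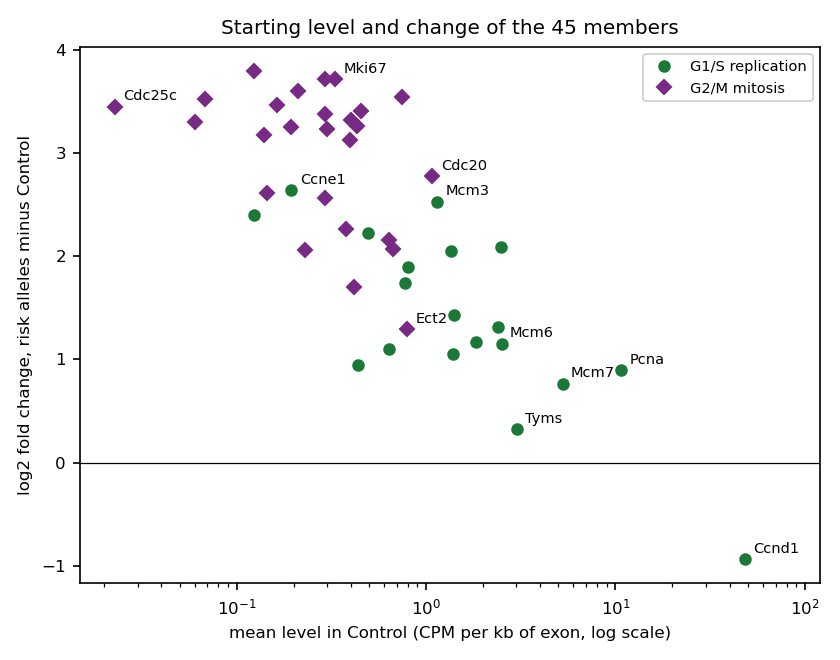
Each point is 1 of the 45 genes, with its mean Control level in CPM per kb of exon on a log axis and its log2 fold change in the mean of both risk allele groups against Control. G2/M genes (diamonds) sit at the upper left and G1/S genes (circles) run down to Pcna, Tyms and Ccnd1 at the right, with r of -0.79 over all points and the Control level entering both axes.

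Against the wild type (single mutant) group the picture was much the same in numbers. The mean of both risk allele groups was called higher for 41 of the 45 genes, lower for Ccnd1 (-1.21 ± 0.17 SE, adjusted p = 0.000779) and not called for 3, beside 20.6% of all tested genes called higher and 19.3% lower. The 26 G2/M genes were all called higher, with a median of 2.92, and the G1/S median was 1.39. Mki67 was higher by 3.26 ± 0.22 (SE; adjusted p = 4.18e-05) and Top2a by 3.06 ± 0.17 (SE; adjusted p = 3.38e-05). Tpx2 had the highest value, 3.32 ± 0.20. Both comparisons share the risk allele libraries. Mcm6 (1.47 ± 0.71), Tyms (0.32 ± 0.17) and Cdc45 (0.80 ± 0.37) were not called, with adjusted p values of 0.129, 0.164 and 0.118. Mcm6 was called in 2 of the 16 alternatives: without wild type (single mutant) replicate 3 alone, and without all libraries titled NA_. In the latter fit, which left 1 Control library, its change was 2.54 ± 0.31 (SE). Ccne2 was called at 0.62 (adjusted p = 0.0359), but in only 7 of the 16 alternatives.

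**Figure D5:**
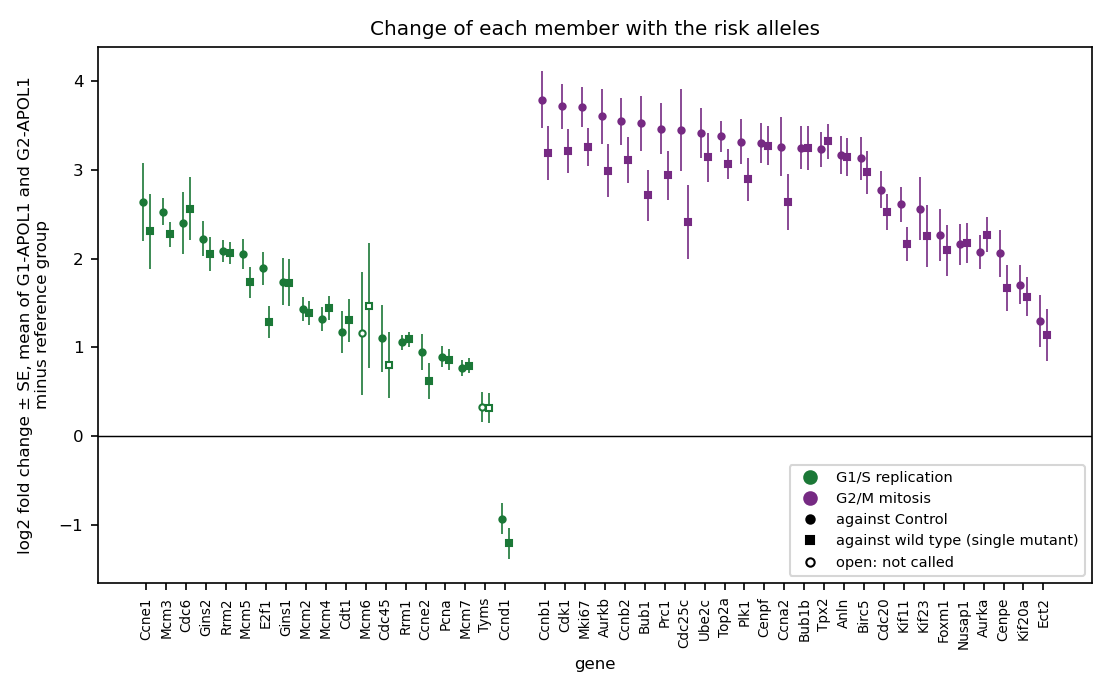
For each gene, the log2 fold change with its SE of the mean of G1-APOL1 and G2-APOL1 is shown against Control (circles) and against wild type (single mutant) (squares), with open symbols where the gene was not called. All G2/M points lie above 1, the G1/S points run from 2.64 down to Tyms, and Ccnd1 alone lies below 0.

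No cell cycle gene was called between the wild type (single mutant) and Control groups. The edgeR fit called 0 of the 45 genes, as it called 0% of all tested genes higher and 0% lower, and DESeq2 called 0 of the 45 and 17 of all genes. At an unadjusted p under 0.05 there were 2 of the 45, E2f1 and Bub1, and 724 of the 17823 tested genes. The log2 fold change was above 0 for 36 of the 45 genes, with a median of 0.31 for G2/M genes and 0.03 for G1/S genes. The largest were those of Cdc25c (1.04 ± 0.53), Bub1 (0.81 ± 0.33) and Ccna2 (0.63 ± 0.33), each at adjusted p = 1. All 3 wild type (single mutant) libraries lay above all 3 Control libraries for 8 of the 45 genes, against 4.08% of all tested genes. A difference that misses the threshold with 3 libraries a group does not show that the groups are alike.

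Each allele was also set against the same Control libraries, so both comparisons share them. G1-APOL1 was called higher for 43 of the 45 genes, lower for Ccnd1 and not called for Mcm6 (1.67 ± 0.80), where 19.5% of all tested genes were called higher and 17.9% lower. Its median log2 fold change was 3.95 for G2/M genes and 1.67 for G1/S genes. G2-APOL1 was called higher for 38 genes and lower for Ccnd1, where 12.7% of all tested genes were called higher and 8.86% lower. Its medians were 2.57 and 0.97. The 6 genes not called in G2-APOL1 were Tyms, Mcm6, Cdt1, Cdc45 and Ccne2 of the G1/S genes and Ect2 of the G2/M genes. Of the genes called in G2-APOL1, 10 lost the call in at least 1 alternative. Among them was Pcna (0.50, adjusted p = 0.0300), called in 9 of the 16 alternatives. The highest values were Ccnb1 in G1-APOL1 (4.65 ± 0.35 SE, adjusted p = 4.89e-05) and Mki67 in G2-APOL1 (3.08 ± 0.24 SE, adjusted p = 0.000430). Ccnd1 changed by -0.78 ± 0.21 (SE; adjusted p = 0.0183) in G1-APOL1 and -1.08 ± 0.21 (SE; adjusted p = 0.00830) in G2-APOL1. Its call in G2-APOL1 was lost without G2-APOL1 replicate 1 (-1.05, adjusted p = 0.0596). Its call in G1-APOL1 was lost without G1-APOL1 replicate 1 (-0.73, adjusted p = 0.108), without G1-APOL1 replicate 2 (-0.80, adjusted p = 0.0982) and with library totals alone (-0.48, adjusted p = 0.0833). Tyms was called in G1-APOL1 at 0.63 ± 0.20 (SE; adjusted p = 0.0322). It lost that call without either G1-APOL1 library, without Control replicate 1 or 3 and without the libraries titled NA_. In the last of these fits Control replicate 3 was the only Control library.

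All 45 genes were lower in G2-APOL1 than in G1-APOL1, and 27 of these differences were called. The calls were 19 of 26 G2/M genes, with a median of -1.37, and 8 of 19 G1/S genes, with a median of -0.89; 2.88% of all tested genes were called lower in G2-APOL1 and 3.84% higher. Both G1-APOL1 libraries lay above both G2-APOL1 libraries for 45 of 45 genes, an order held by 26.7% of all tested genes. G1-APOL1 replicate 2 was the highest of the 4 risk allele libraries for each of the 45. The share of all tested genes with that order is not given, so it is not read as particular to these genes. Summed over the 26 G2/M genes, the level was 452 and 573 CPM in G1-APOL1, 231 and 167 in G2-APOL1, 44.3 to 57.2 in wild type (single mutant) and 39.98 to 42.5 in Control. Rrm2 had the smallest adjusted p, with a difference of -1.69 ± 0.15 (SE; adjusted p = 0.00286) between the 2 alleles. The largest differences were those of Anln (-1.77 ± 0.25), Cdc25c (-1.76 ± 0.47, not called) and Ccnb1 (-1.71 ± 0.35). The smallest were those of Ccnd1 (-0.30 ± 0.23, not called), Mcm7 (-0.54 ± 0.11, called) and Tyms (-0.62 ± 0.22, not called). Mki67 differed by -1.27 ± 0.25 (SE; adjusted p = 0.0255), Top2a by -1.28 ± 0.20 (SE; adjusted p = 0.0134), Cdk1 by -1.54 ± 0.28 (SE; adjusted p = 0.0212) and Pcna by -0.78 ± 0.15 (SE; adjusted p = 0.0231). Foxm1 (-1.08 ± 0.35), E2f1 (-0.70 ± 0.23) and Ccne1 (-1.31 ± 0.50), the regulators among these genes, were not called, at adjusted p values of 0.101, 0.0995 and 0.147. The number of calls rested on single libraries: it was 2 without G1-APOL1 replicate 1, 1 without G1-APOL1 replicate 2 and 2 without G2-APOL1 replicate 2, but 25 without G2-APOL1 replicate 1. In these 4 fits the lone library of a group is assumed to vary like the others. Rrm2 was called in all 16 alternatives run, with differences from -1.92 to -1.60 and adjusted p from 1.60e-19 (DESeq2) to 0.0486.

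Genes of the same pathways outside the 45 were counted against Control with lists chosen for their function. In that comparison 19.3% of all tested genes were called higher and 18% lower. Of 38 other replication genes, 26 rose, 1 fell and 11 were not called, with a median of 0.72. Lig1, the ligase that joins Okazaki fragments, stood at 28.2 and 33.7 CPM in G1-APOL1, 15.2 and 16.2 in G2-APOL1, 5.75, 6.87 and 6.06 in wild type (single mutant) and 6.94, 6.85 and 6.92 in Control. Its risk allele libraries were all above the others, with a change of 1.67 ± 0.12 (SE; adjusted p = 6.08e-05). Uhrf1, which keeps DNA methylation at the fork, rose by 3.45 ± 0.25, the chromatin assembly factor subunit Chaf1b by 2.70 ± 0.22, the checkpoint mediator Clspn by 3.53 ± 0.30 and Dtl, which targets Cdt1 for destruction, by 3.59 ± 0.37. Of 42 other mitosis genes, 38 rose, none was called lower and 4 were not called, with a median of 2.64. Examples were the passenger complex subunit Cdca8 (2.69 ± 0.17), the mitotic entry gene Cdca3 (2.21 ± 0.16), the lamin Lmnb1 (1.87 ± 0.14), and the cytokinesis genes Racgap1 (2.62 ± 0.20) and Cep55 (3.2 ± 0.26). The gap in medians between replication and mitosis genes outside the 45 was in the same direction as within them. These lists were also chosen with earlier results of these data known and use the same libraries. The shared direction is therefore a description and no independent check. Of 17 genes of the replication checkpoint and recombination, 12 rose and 5 were not called, with a median of 1.63. The exonuclease Exo1 rose by 3.24 ± 0.37, Brca1 by 2.20 ± 0.26, Fanci by 2.13 ± 0.27 and the helicase Blm by 1.49 ± 0.20.

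The G1 cyclins, their kinases and the E2F family were mixed, with 10 of 20 called higher, 2 lower (E2f6 and Lin52) and 8 not called (median 0.44). The shares of all tested genes were 19.3% higher and 18% lower. The repressors E2f8 and E2f7, which are themselves E2F targets, rose by 4.03 ± 0.39 (SE; adjusted p = 0.000162) and 2.85 ± 0.31 (SE; adjusted p = 0.000263). Among the kinases, Cdk4 stood at 101 to 162 CPM in the 4 risk allele libraries and 65.0 to 77.4 in the other 6, with no overlap, and rose by 0.90 ± 0.10. Cdk6 and Cdk2 rose by 1.33 ± 0.18 and 1.12 ± 0.15, and Mybl2, a partner of Foxm1, by 1.63 ± 0.22. Ccnd1 thus fell while the kinases it binds rose, and the other D cyclins differed from it. Ccnd2 stood at 11.3 and 14.9 CPM in G1-APOL1, 21.9 and 24.6 in G2-APOL1, 12.4, 10.8 and 14.0 in wild type (single mutant) and 12.4, 12.8 and 11.98 in Control. Its G2-APOL1 libraries were above the other 8, and it was higher in G2-APOL1 than in G1-APOL1 by 0.82 ± 0.18 (SE; adjusted p = 0.0321). Ccnd3 was not called (-0.17 ± 0.09; adjusted p = 0.157). Ccnd2, Ccnd3, Cdk6, E2f6 and Lin52 were named after their values had been seen.

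Of 15 inhibitors of the cycle and pocket proteins, 5 were called higher, 1 lower and 9 not called (median 0.29). Of all tested genes, 19.3% were called higher and 18% lower, so these counts are not read as a result about the list. Fzr1, the activator of the anaphase-promoting complex in G1, rose by 0.37 ± 0.08 (SE; adjusted p = 0.00753), and the antiproliferative gene Btg1 by 0.74 ± 0.16 (SE; adjusted p = 0.00788). The retinoblastoma relative Rbl1 rose by 0.58 ± 0.16 (SE; adjusted p = 0.0189) and its paralog Rbl2, which is known from quiescent cells, changed by -0.54 ± 0.15 (SE; adjusted p = 0.0207). The kinase inhibitor Cdkn2d rose by 0.47 ± 0.16 (SE; adjusted p = 0.0407). Cdkn2a, the locus of p16 and p19Arf, stood at 0.524 and 0.554 CPM in G1-APOL1, 0.649 and 0.374 in G2-APOL1, 0, 0.0365 and 0.0341 in wild type (single mutant) and 0.208, 0 and 0.119 in Control. It was called higher (adjusted p = 0.0335) from 0 counts in 2 of the reference libraries, so no fold is given. Cdkn1a, which encodes p21, was named after its values had been seen. It stood at 50.3 and 64.9 CPM in G1-APOL1, 24.0 and 37.3 in G2-APOL1, 6.06, 9.06 and 27.1 in wild type (single mutant) and 45.1, 22.8 and 20.9 in Control and overlapped between the groups (0.50 ± 0.49; adjusted p = 0.447).

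Markers of several kidney and blood cell types moved with the same groups. Counts of markers called against Control stand beside 19.3% of all tested genes called higher and 18% lower for the mean of both alleles. For G1-APOL1 alone, 17.9% were called lower, and for G2-APOL1 alone 8.86%. Between the alleles, 2.88% of all tested genes were called lower in G2-APOL1 and 3.84% higher. The injured tubule list (11 genes, 11 called higher against Control) summed to 21080 to 30215 CPM in G1-APOL1, 5024 to 8817 in G2-APOL1, 895 to 1420 in wild type (single mutant) and 836 to 1322 in Control. It was higher in G1-APOL1 than in G2-APOL1, and 4 of its 11 genes were called lower in G2-APOL1. The 45 genes had that order too, as did the libraries for 26.7% of all tested genes. Macrophage markers (12 genes, 11 called higher and 1 lower) summed to 759.7 to 991 CPM in G1-APOL1, 769 to 1136 in G2-APOL1, 201 to 223 in wild type (single mutant) and 215 to 264 in Control. Their ranges overlapped between the risk alleles, and 0 of 12 were called between G2-APOL1 and G1-APOL1. T cell markers (6 of 8 called higher) summed to 14.0 to 24.4 CPM in G1-APOL1, 24.5 to 34.1 in G2-APOL1, 4.35 to 7.67 in wild type (single mutant) and 4.81 to 12.4 in Control. Fibroblast and mural markers (5 of 10 called higher) ran the other way between the alleles, at 893 to 1046 CPM in G1-APOL1, 1681 to 2320 in G2-APOL1, 394 to 439 in wild type (single mutant) and 357 to 532 in Control. The list was split in G1-APOL1 against Control. Col1a1, Col1a2, Col3a1 and Fn1 were called higher there, and Dcn (-0.80) and Lum (-1.03) lower, all named after their values had been seen. Of the 10 proximal tubule markers, whose sums are given above, 10 were called lower, and of 9 distal nephron and collecting duct markers 5 were. Podocyte markers (0 of 8 called) summed to 233 to 235 CPM in G1-APOL1, 286 to 328 in G2-APOL1, 204 to 553 in wild type (single mutant) and 207 to 389.5 in Control, with no marker called in either allele alone. Of 8 endothelial markers 1 was called lower in the mean of both alleles, 6 in G1-APOL1 alone and 0 in G2-APOL1 alone, and they summed to 283 to 313 CPM in G1-APOL1, 520.1 to 786 in G2-APOL1, 381 to 712 in wild type (single mutant) and 520.0 to 569.8 in Control. The 3 neutrophil markers that could be tested of 6 rose, and the 4 erythroid markers tested of 5 fell. Erythroid markers summed to 14.4 to 18.8 CPM in G1-APOL1, 120.1 to 232 in G2-APOL1, 304 to 481 in wild type (single mutant) and 544 to 914 in Control, and 3 of 4 were called higher in G2-APOL1 than in G1-APOL1. Of 6 B and plasma cell markers 1 was called lower (Jchain). Mertk of the macrophage list and Kdr of the endothelial list were the ones called lower there, and these 3 were named after their values had been seen. The highest and lowest markers by level were Slc34a1 and Slc5a12 (proximal tubule), Umod and Slc4a1 (distal nephron), Spp1 and Sox9 (injured tubule), Podxl and Wt1 (podocyte), Plvap and Cdh5 (endothelial), Col1a2 and Lum (fibroblast and mural), Lyz2 and Fcgr1 (macrophage), Cd4 and Cd2 (T cell), Jchain and Ms4a1 (B and plasma cell) and Csf3r and Mpo (neutrophil). None of these lists had a marker at 0 in all 10 libraries. In which cells the cell cycle genes were expressed was not measured, and the part of any cell type in their change was not tested.

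Some of the 45 genes share exon sequence with a gene on the opposite strand, and the labels do not state whether counting used strand. The share of exon bases was 67.3% for Gins2 (with Gse1), 29.3% for Kif20a (with Cdc23), 23.4% for Ccnd1 (with LTO1) and 17.4% for Ccne2 (with Ints8), and the values of these genes are uncertain. Some have a pseudogene that was counted separately, and reads could be split between the copies. Ccnb2 had 37, 26 and 30 counts in Control, fewer than its pseudogene Ccnb2-ps with 50, 46 and 42, and 726 and 1033 counts in G1-APOL1, where Ccnb2-ps had 64 and 63. The low reference levels of Ccnb2, and with them its fold change, are therefore uncertain. Pcna had 665 to 2572 counts per library and Pcna-ps2 7 to 96, and Ccnb1-ps had at most 1.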

How the data were processed

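Kidney RNA of 10 libraries was sequenced as single-end reads of 100 bases after oligo-dT selection, per the labels' protocols. The deposited values are the authors' raw read counts per Ensembl gene, not normalized. The submitters' processing notes name CASAVA 1.8.2, FastQC, Trim Galore, STAR 2.4.1d, HTSeq 0.6.1 and GRCm38. Which annotation release, options and strandedness were used is not stated in the labels. Symbols and coordinates were taken from GENCODE M21, which matched 46005 of 46517 identifiers. No 2 libraries were alike within sampling noise (lowest chi-square per gene of a pair 26.2).

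The main test was edgeR 4.0.16 in R 4.3.3, with TMM scaling, filterByExpr at a minimum count of 10 and quasi-likelihood F tests on group means over all 10 libraries (common biological coefficient of variation 0.249). Standard errors are the log2 fold change over the square root of F. DESeq2 1.42.0 was an alternative, and the edgeR script was tested on simulated data. Groups follow the genotype label; the human APOL1 transcript was not analysed here. The 45 members and all lists were chosen with earlier results of these data known. By rule, values in every library are printed for 12 set genes, for the 3 largest and 3 smallest changes of the mean of both alleles against Control and of G2-APOL1 against G1-APOL1, for members not called or lower in the first and for members called in the second. Of each other pathway list, up to 5 genes with the lowest p are named, and every called inhibitor. A few genes that the rule or a count would name are not reported here. Figures were drawn with matplotlib 3.10.9.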

Additional observations from a re-analysis of the deposited data

Results flagged for a closer look

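The risk alleles differed from each other in 27 of the 45 genes by the test of the difference itself (edgeR quasi-likelihood, Benjamini-Hochberg adjusted p under 0.05, 2 libraries each), and all 27 were lower in G2-APOL1; of all tested genes 2.88% were called lower and 3.84% higher. Values are log2 differences, G2-APOL1 minus G1-APOL1. Among the replication genes they were -1.69 for Rrm2, -1.56 for Gins2, -1.04 for Mcm5, -0.99 for Mcm3, -0.91 for Mcm2, -0.84 for Rrm1, -0.78 for Pcna and -0.54 for Mcm7. Among cyclins and kinases of mitosis they were -1.71 for Ccnb1, -1.54 for Cdk1, -1.51 for Ccnb2, -1.48 for Plk1 and -1.17 for Aurka. Among the checkpoint, chromosome and degradation genes they were -1.65 for Bub1, -1.54 for Ube2c, -1.44 for Cdc20, -1.31 for Birc5, -1.28 for Top2a, -1.27 for Mki67, -1.24 for Cenpf and -1.20 for Bub1b. Among the spindle and cytokinesis genes they were -1.77 for Anln, -1.47 for Tpx2, -1.41 for Kif20a, -1.41 for Prc1, -1.39 for Nusap1 and -1.25 for Kif11. With 2 libraries a group, 1 library can decide these calls, and only the call of Rrm2 was kept in all 16 alternatives. Injured tubule markers were also called lower in G2-APOL1 (4 of 11), and erythroid (3 of 4 tested), endothelial (4 of 8), fibroblast and mural (3 of 10) and distal nephron markers (2 of 9) higher; of 10 proximal tubule markers 2 were called higher and 2 lower. Their part in these differences was not tested.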

How the results depend on the processing

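The alternatives were relative log expression size factors, library totals alone, no filter on low counts, DESeq2, and fits on the compared groups only. Each library was also left out in turn. The 3 libraries titled NA_ were left out together, which was chosen after seeing the data. That fit kept Control replicate 3 as the only Control library, so its calls against Control rest on that library. None of 3630 refitted values of single genes reversed, but this count does not cover every gene. It leaves out Tyms in G2-APOL1 against Control. For wild type (single mutant) against Control it holds only Bub1, Ccna2 and Cdc25c, the genes with the largest rises there. Reversals among the values left out are not reported here. Against Control, the mean of both risk allele groups was called for 43 genes, for 42 to 43 with 1 library left out and for 41 to 44 under the other alternatives. Against wild type (single mutant) it was 42, with 40 to 42 and 41 to 44. G1-APOL1 against Control gave 44, with 41 to 44 and 43 to 44, G2-APOL1 against Control 39, with 30 to 39 and 32 to 42, and wild type (single mutant) against Control 0 throughout. G2-APOL1 against G1-APOL1 gave 27, with 1 to 29 and 21 to 38: 21 on these groups alone and 38 with DESeq2. The counts of 1 and 2 came from leaving out G1-APOL1 replicate 1 or 2 or G2-APOL1 replicate 2; without G2-APOL1 replicate 1 the count was 25, and the cause was not tested. The G1/S minus G2/M median of -1.94 against Control ranged from -2.10 to -1.70 with 1 library left out, and that of 0.48 between the alleles from 0.38 to 0.62. All genes called against Control fell from 6653 to 4216 without the libraries titled NA_, and those called between the alleles ranged from 22 to 1441 with 1 library left out. Among promoters, GGCGGG in place of the E2F words was in 12 of 14 and 17 of 20, GGCGCC in 3 and 5, and TTTGGCGC alone in 4 and 0. No paired analysis was possible because the labels number no replicates. Depth limits genes such as Cdc25c, with 2 to 104 counts.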
